A study of Rattus norvegicus with 6 samples.

Results

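The 6 miRNAs described here are rno-miR-103-3p, rno-miR-107-3p, rno-miR-26a-5p, rno-miR-26b-5p, rno-miR-33-5p and rno-miR-34a-5p, given below without the species prefix. They are regulators of insulin sensitivity and lipid metabolism. They were taken by name from a table of 764 mature rat miRNAs, in which all 6 were listed and all 6 had counts. The table holds sequencing counts of RNA of 18 to 30 nucleotides from small extracellular vesicles, the nanometre-sized membrane vesicles that cells shed into plasma. Each library was made from the vesicles of 2 ml of plasma of male wild-type Sprague-Dawley rats, which were 6 to 8 weeks old when obtained. The 3 control libraries, C1 to C3 for replicates 1 to 3, came from control rats, for which the labels give no injection. The 3 diabetic libraries, DM1 to DM3, came from rats at 8 weeks of diabetes, which was induced by intraperitoneal streptozotocin at 65 mg/kg and accepted at a fasting glucose above 11.1 mmol/L 1 week later. Streptozotocin destroys the beta cells of the pancreas, so these rats are a model of insulin deficiency rather than of diet-induced insulin resistance. The labels do not say whether a library holds 1 animal or a pool, so the spread between libraries may in part be technical.

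miRNAs pair through their seed, the bases near the 5′ end, with messenger RNAs and lower the output of those messages. miR-103 and miR-107 lie in introns of pantothenate kinase genes, whose enzymes start the synthesis of coenzyme A, and in obese mice they lower insulin sensitivity by repressing caveolin-1. miR-26a and miR-26b lie in introns of the CTD small phosphatase genes, and miR-26a raises insulin sensitivity in mouse liver. miR-33 lies in an intron of Srebf2, the gene of the regulator of cholesterol synthesis, and represses the cholesterol exporter Abca1. miR-34a is induced by p53 and represses the deacetylase Sirt1.

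The mature sequences show which of the 6 have a seed in common and which are alike enough to share reads. They are printed 5′ to 3′ from RefSeq (build GRCr8), with the seed, bases 2 to 8, in capitals.
miR-103-3p: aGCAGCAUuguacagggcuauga
miR-107-3p: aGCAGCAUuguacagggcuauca
miR-26a-5p: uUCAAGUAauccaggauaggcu
miR-26b-5p: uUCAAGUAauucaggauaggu
miR-33-5p: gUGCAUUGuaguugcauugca
miR-34a-5p: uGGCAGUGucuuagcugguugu
The 6 miRNAs carry 4 seeds. miR-103-3p and miR-107-3p share one and differ along their whole length by a single base, G22C (the base of miR-103-3p, its position from the 5′ end, the base of miR-107-3p). miR-26a-5p and miR-26b-5p share another and differ by C11U and C21U over the 21 positions they have in common, and miR-26a-5p is 1 base longer. How reads that match both partners were assigned is not given in the sources used here, so single values within these pairs are uncertain. No other of the 693 mature names in the sequence table has the seed of miR-103-3p, miR-26a-5p or miR-33-5p, whereas miR-34a-5p shares its seed with miR-34b-5p, miR-34c-5p, miR-449a-5p and miR-449c-5p.

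In GRCr8, miR-107-3p lies at chr1:241750431-241750453 on the minus strand within Pank1, and the listed copy of miR-103-3p at chr3:138963278-138963300 on the plus strand within Pank2. miR-26a-5p lies at chr8:127633063-127633084 within Ctdspl, miR-26b-5p at chr9:83425723-83425743 within Ctdsp1 and miR-33-5p at chr7:115593957-115593977 within Srebf2, all on the plus strand. miR-34a-5p, at chr5:165815971-165815992 on the plus strand, overlaps no protein-coding gene of the annotation.

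Total counts ran from 6254077 to 8930730 per library. Levels are given as CPM, the counts scaled to a library total of 1e+06, and as normalized CPM, which are also scaled by the trimmed mean of M values (TMM), a factor that aligns the bulk of miRNAs between libraries. The TMM factors were 0.702 to 0.978 in control and 1.12 to 1.27 in diabetic libraries, so that normalized CPM are higher than CPM in control libraries and lower in diabetic ones. The median log2 fold change over all tested miRNAs was 0.02 with TMM and 0.61 without it, and both scales are therefore given. The counts hold no external standard that would choose between them. Both scales are relative to the other miRNAs of a library, so a higher level need not be a higher amount. Where it is, more vesicles of one source and more of the miRNA per vesicle cannot be told apart. Vesicle marker proteins are not part of a miRNA table, so the vesicle preparation was not checked here.

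miR-26a-5p was by far the most abundant of the 6 and miR-33-5p and miR-34a-5p were near the detection limit. miR-26a-5p ranked 16th to 27th by counts among all listed miRNAs, miR-103-3p 70th to 88th, miR-26b-5p 67th to 91st and miR-107-3p 160th to 195th. miR-33-5p and miR-34a-5p ranked 348th or lower in every library. The 6 together held 0.945%, 0.542% and 0.416% of miRNA counts in C1, C2 and C3 and 1.44%, 1.44% and 1.66% in DM1, DM2 and DM3. Of these counts miR-26a-5p made up 89.2% to 94%. Within each of the 6 libraries the order miR-26a-5p above miR-103-3p or miR-26b-5p, and both of these above miR-107-3p, was the same. miR-103-3p exceeded miR-26b-5p in 5 of 6 libraries, and miR-33-5p exceeded miR-34a-5p in 3 of 6, so that neither pair of neighbours differed in a fixed direction. The mature forms are 21 to 23 nucleotides long and a read covers the whole molecule, so levels are compared without a correction for length, while differences in adaptor ligation between sequences were not corrected.

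**Figure D1:**
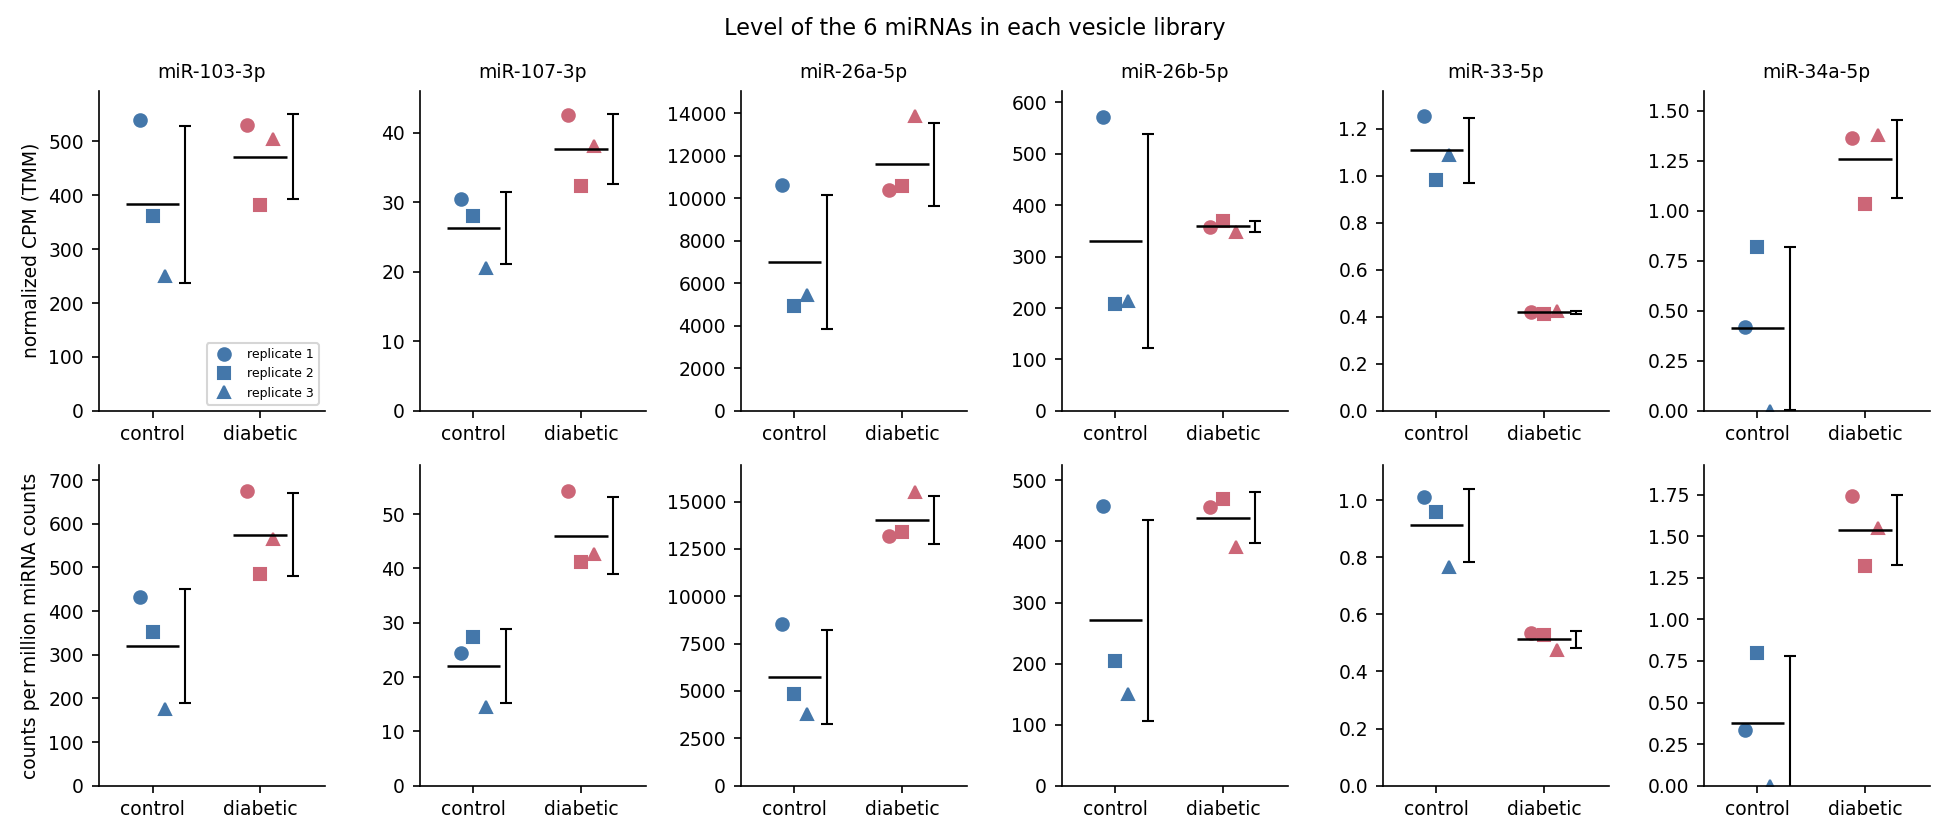
Level of each miRNA in the 3 control and 3 diabetic libraries, as normalized CPM (upper row) and as CPM (lower row), each axis starting at 0; points are libraries, horizontal lines group means and bars 1 SD. miR-26a-5p in C1 lies at the diabetic level in the upper row (10641 normalized CPM), while in the lower row every diabetic library lies above every control library for this miRNA.

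The comparison of the groups asked which miRNAs of plasma vesicles change with diabetes. The 4 more abundant miRNAs had higher mean levels in diabetic libraries and none passed the test. By the mean CPM, before TMM scaling, miR-26a-5p stood 2.46-fold, miR-107-3p 2.09-fold, miR-103-3p 1.8-fold and miR-26b-5p 1.62-fold higher in diabetic libraries. With TMM scaling the log2 fold changes were 0.73, 0.52, 0.30 and 0.12 in the same order. The test was edgeR's quasi-likelihood test over the 362 miRNAs that passed a filter on low counts, called at a Benjamini-Hochberg adjusted p under 0.05. Over all of them 1.66% were called. Of the 6 miRNAs, 4 passed the filter and 0 were called, and 0 had an unadjusted p under 0.05, also by DESeq2, edgeR's exact test and limma-voom. With library size only 0 of the 4 were called, and 2, miR-107-3p and miR-26a-5p, had an unadjusted p under 0.05 in edgeR's test, where 13.5% of all tested miRNAs were called. Without C1, 5 of the 6 passed the filter and 1, miR-26a-5p, was called, where 13% of all 377 tested miRNAs were called. In that fit 2, miR-26a-5p and miR-26b-5p, had an unadjusted p under 0.05, where 130 of the 377 did. With all libraries miR-33-5p and miR-34a-5p did not pass the filter and were compared by their counts.

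miR-26a-5p stood at 10641, 4939 and 5434 normalized CPM in C1, C2 and C3 and at 10376, 10566 and 13863 in DM1, DM2 and DM3. Library C1 thus lay within the range of the diabetic libraries, and C2 and C3 lay below it. The group values were 7005 ± 3159 and 11602 ± 1961 (mean ± SD over 3 libraries each). The log2 fold change was 0.73 (SE 0.39, 95% interval -0.14 to 1.59) and did not pass edgeR's quasi-likelihood test (adjusted p = 0.269). As a share of counts the groups did not overlap, with 0.854%, 0.483% and 0.381% in C1, C2 and C3 and 1.32%, 1.34% and 1.55% in DM1, DM2 and DM3. The two-sided exact permutation test of these shares gave p = 0.1, the smallest value that 3 libraries against 3 allow (adjusted p = 0.12 over the 6 miRNAs). Without C1, miR-26a-5p rose by 1.14 on the log2 scale (SE 0.30, edgeR quasi-likelihood adjusted p = 0.0368), in a fit that called 13% of all miRNAs. Without any other single library its adjusted p was 0.354 to 0.576, and with library size only and all libraries the log2 fold change was 1.30 with an adjusted p of 0.0503 by the same edgeR test.

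miR-26b-5p, which has the same seed, stood at 571, 209 and 213 normalized CPM in C1, C2 and C3 and at 358, 370 and 349 in DM1, DM2 and DM3. The diabetic libraries lay close together, whereas C1 lay above them and the other control libraries below. The coefficient of variation was 62.8% in control and 2.9% in diabetic libraries. The log2 fold change was 0.12 (SE 0.43, 95% interval -0.84 to 1.07), and did not pass edgeR's quasi-likelihood test (adjusted p = 0.892). Its sign depended on single libraries and on the scaling, at 0.74 without C1, -0.13 without C2 or C3 and -0.16 with upper quartile factors. As a share of counts the groups overlapped (exact permutation p = 0.3, n = 3 each).

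The proportion of the miR-26 partners did not depend on any scaling, since both counts come from the same library. The ratio of miR-26a-5p to miR-26b-5p counts was 18.6, 23.7 and 25.5 in C1, C2 and C3 and 29, 28.6 and 39.8 in DM1, DM2 and DM3. Every diabetic library thus had relatively more miR-26a-5p than every control library. The mean ratio was 22.6 ± 3.56 for control and 32.4 ± 6.34 for diabetic (mean ± SD, n = 3 each), a difference of 0.52 in the mean log2 ratio. The two-sided exact permutation p was 0.1, the smallest possible (adjusted p = 0.2 over 2 ratios), and the difference in log2 ratio was 0.36 to 0.61 when single libraries were left out. If reads were divided between the partners by the authors' counting, the ratio carries that division.

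**Figure D2:**
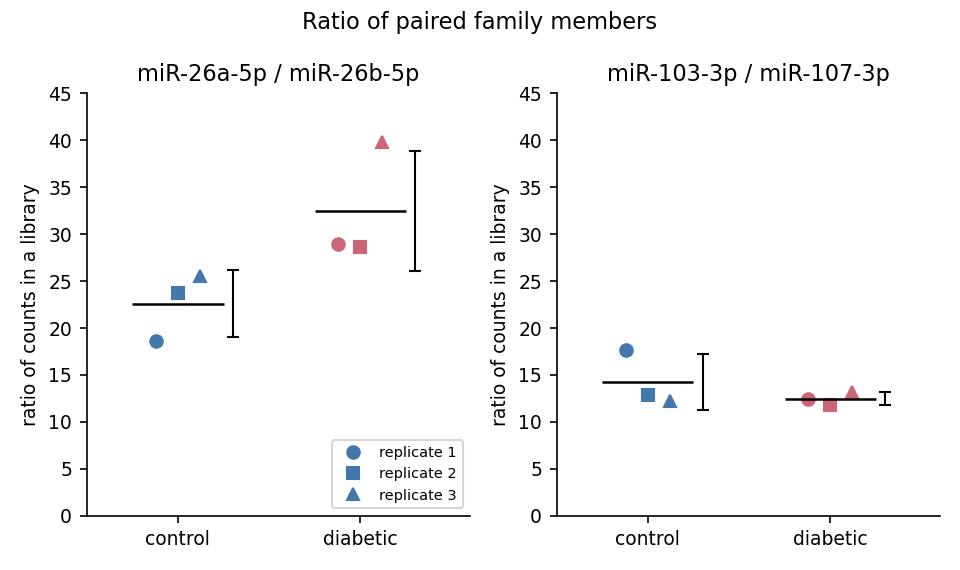
Ratio of the counts of near-identical family partners within each library, for miR-26a-5p over miR-26b-5p (left) and miR-103-3p over miR-107-3p (right); points are libraries, lines group means and bars 1 SD. The miR-26 ratio is 18.6 to 25.5 in control and 28.6 to 39.8 in diabetic libraries, and the miR-103 to miR-107 ratio overlaps between the groups.

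miR-103-3p stood at 539, 361 and 250 normalized CPM in C1, C2 and C3 and at 529, 382 and 503 in DM1, DM2 and DM3. The groups overlapped, with C1 the highest of the 6 libraries and C3 the lowest. The log2 fold change was 0.30 (SE 0.37, 95% interval -0.52 to 1.11) and did not pass edgeR's quasi-likelihood test (adjusted p = 0.669). In CPM its groups did not overlap, at 432, 353 and 176 in C1, C2 and C3 and 674, 485 and 565 in DM1, DM2 and DM3 (exact permutation p = 0.1 on the shares, n = 3 each). With upper quartile factors the log2 fold change was 0.01.

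miR-107-3p was the 1 tested miRNA of the 4 whose groups did not overlap on the normalized scale. It stood at 30.4, 28.0 and 20.5 normalized CPM in C1, C2 and C3 and at 42.5, 32.4 and 38.1 in DM1, DM2 and DM3. Of all 362 tested miRNAs, 27.9% had groups that did not overlap, so that 1 of 4 is near the background. The group values were 26.3 ± 5.18 and 37.7 ± 5.08 (mean ± SD over 3 libraries each). The log2 fold change was 0.52 (SE 0.35, 95% interval -0.25 to 1.29) and did not pass edgeR's quasi-likelihood test (adjusted p = 0.382). With library size only the log2 fold change of miR-107-3p was 1.06 (edgeR quasi-likelihood adjusted p = 0.0878). The ratio of miR-103-3p to miR-107-3p was 17.7, 12.9 and 12.2 in C1, C2 and C3 and 12.4, 11.8 and 13.2 in DM1, DM2 and DM3. Library C1 stood above the other 5 libraries, and the groups overlapped (exact permutation p = 0.5, n = 3 each).

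**Figure D3:**
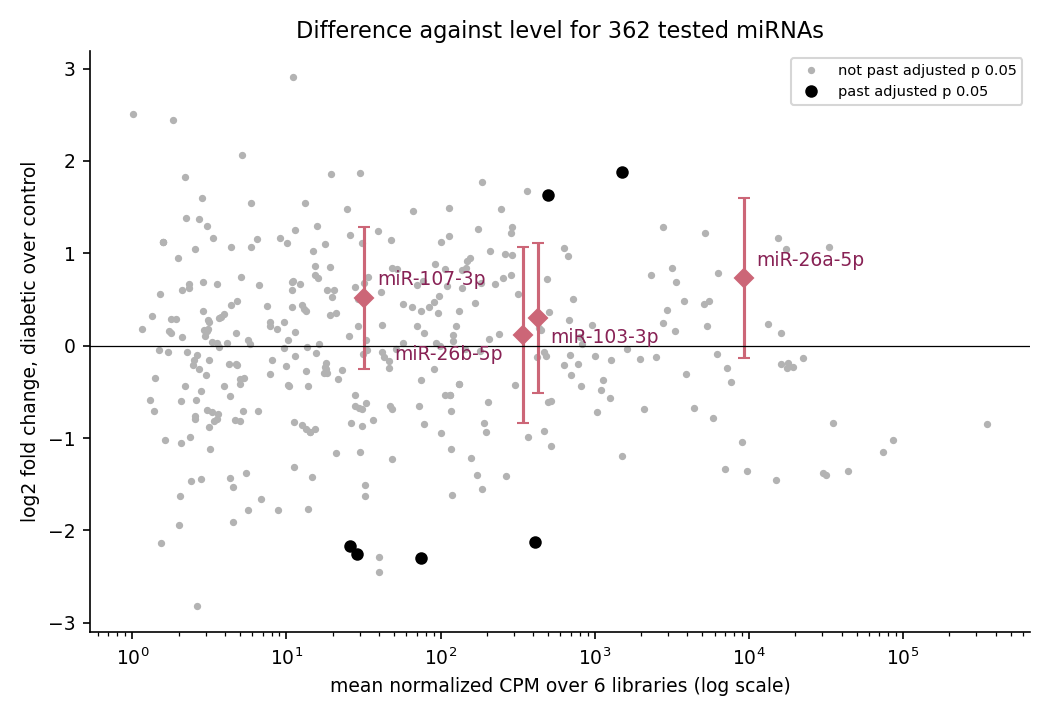
Log2 fold change of diabetic over control against the mean normalized CPM (log axis) for the 362 tested miRNAs, with the 6 called ones in black and miR-103-3p, miR-107-3p, miR-26a-5p and miR-26b-5p as diamonds with 95% intervals. All 4 diamonds lie above 0 and all 4 intervals include 0.

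miR-33-5p was the 1 miRNA of the 6 with lower levels in diabetic libraries. It had 9, 6 and 5 counts in C1, C2 and C3 and 4 counts in each diabetic library, or 0.765 to 1.01 CPM and 0.476 to 0.534 CPM. The groups did not overlap, but the exact 95% binomial intervals of single libraries did, for example 0.461 to 1.91 CPM in C1 and 0.146 to 1.37 CPM in DM1. Over the pooled counts, 20 in control and 12 in diabetic libraries, the ratio of diabetic to control CPM was 0.555 with an exact 95% interval of 0.247 to 1.19 for counting error only. With TMM-scaled library sizes the ratio was 0.375 with an interval of 0.167 to 0.805, so that the interval holds 1 on the first scale and not on the second. The group values of miR-33-5p were 1.11 ± 0.138 and 0.419 ± 0.00506 normalized CPM (mean ± SD over 3 libraries each). The small diabetic SD comes from equal counts of 4 and does not show the counting error. The two-sided exact permutation test of the shares gave p = 0.1 (adjusted p = 0.12, n = 3 each). In a fit without the filter the log2 fold change was -1.34 (SE 0.91, edgeR quasi-likelihood adjusted p = 0.478). Its other arm, miR-33-3p, had 0 counts in control libraries and 1, 3 and 1 counts in DM1, DM2 and DM3, all at or under the 3 counts that a count of 0 allows.

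miR-34a-5p had 3, 5 and 0 counts in C1, C2 and C3 and 13, 10 and 13 counts in DM1, DM2 and DM3. All diabetic libraries lay above all control libraries. The count of 0 in C3 allows up to 0.459 CPM. Pooled over libraries, 8 counts in control and 36 in diabetic libraries gave a ratio of diabetic to control CPM of 4.16, with an exact 95% interval of 1.9 to 10.4 for counting error only. With TMM-scaled library sizes the ratio was 2.81 (1.28 to 7.0). Across libraries the two-sided exact permutation test of the shares gave p = 0.1 (adjusted p = 0.12, n = 3 each), and a fit without the filter gave a log2 fold change of 1.53 (SE 1.01, edgeR quasi-likelihood adjusted p = 0.463).

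On the normalized scale 3 of the 6 miRNAs had groups that did not overlap (miR-107-3p and miR-34a-5p higher, miR-33-5p lower), where 21.7% of the 566 miRNAs with a count did. As shares of counts it was 5 of the 6, all but miR-26b-5p, where 28.3% of the 566 did. The 566 include miRNAs too sparse for the filter. Among the 362 tested miRNAs 27.9% did not overlap on the normalized scale, and the value for shares was not computed for them. Without TMM the median log2 fold change of all tested miRNAs was 0.61. Whether the shares of the 6 stand apart from those of miRNAs of like abundance was not tested.

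The seed relatives of miR-34a-5p are shown because the seed is the main determinant of target choice.
miR-34c-5p: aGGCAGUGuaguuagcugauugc
miR-449a-5p: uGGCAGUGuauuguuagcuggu
miR-34b-5p: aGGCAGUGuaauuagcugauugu
miR-449c-5p: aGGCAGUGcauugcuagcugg
miR-34c-5p, which in other mammals is made mainly in ciliated and germ cells, was the most abundant of the group with this seed. It stood at 4.75, 1.64 and 5.01 normalized CPM in C1, C2 and C3 and at 6.60, 7.77 and 9.44 in DM1, DM2 and DM3, without overlap. Of all tested miRNAs 27.9% had groups that did not overlap. The log2 fold change of miR-34c-5p was 1.07 (SE 0.49, edgeR quasi-likelihood adjusted p = 0.21). It was called with library size only (1.68, adjusted p = 0.0423 by the same test), where 13.5% of all tested miRNAs were called. The other arm of the miR-34c hairpin, miR-34c-3p, stood at -0.42 (SE 0.50), and the sign of that value changed to 0.12 with library size only. The 3p arm of the miR-34b hairpin, miR-34b-3p, stood at -0.74 (SE 0.54, edgeR quasi-likelihood adjusted p = 0.415). miR-449a-5p had 0, 2 and 0 counts in C1, C2 and C3 and 7, 4 and 3 in DM1, DM2 and DM3. miR-34b-5p had 3 counts in all control and 7 in all diabetic libraries and miR-449c-5p 0 and 2.

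The other arms of the 6 hairpins were nearly absent. Of 7 such arms in the table, 3 had a count and 1, miR-26b-3p, passed the filter. miR-26b-3p had 26, 11 and 5 counts in C1, C2 and C3 and 31, 41 and 31 in DM1, DM2 and DM3. Its log2 fold change was 0.69 (SE 0.56, edgeR quasi-likelihood adjusted p = 0.475). There were 116 to 196 counts of miR-26b-5p for each count of miR-26b-3p in control libraries and 87 to 110 in diabetic ones. miR-26a-3p had 8 counts in all, 2 in C1 and 6 in DM3, and the 5p arms of miR-103 and miR-107 and the 3p arm of miR-34a had 0 counts in every library.

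**Figure D4:**
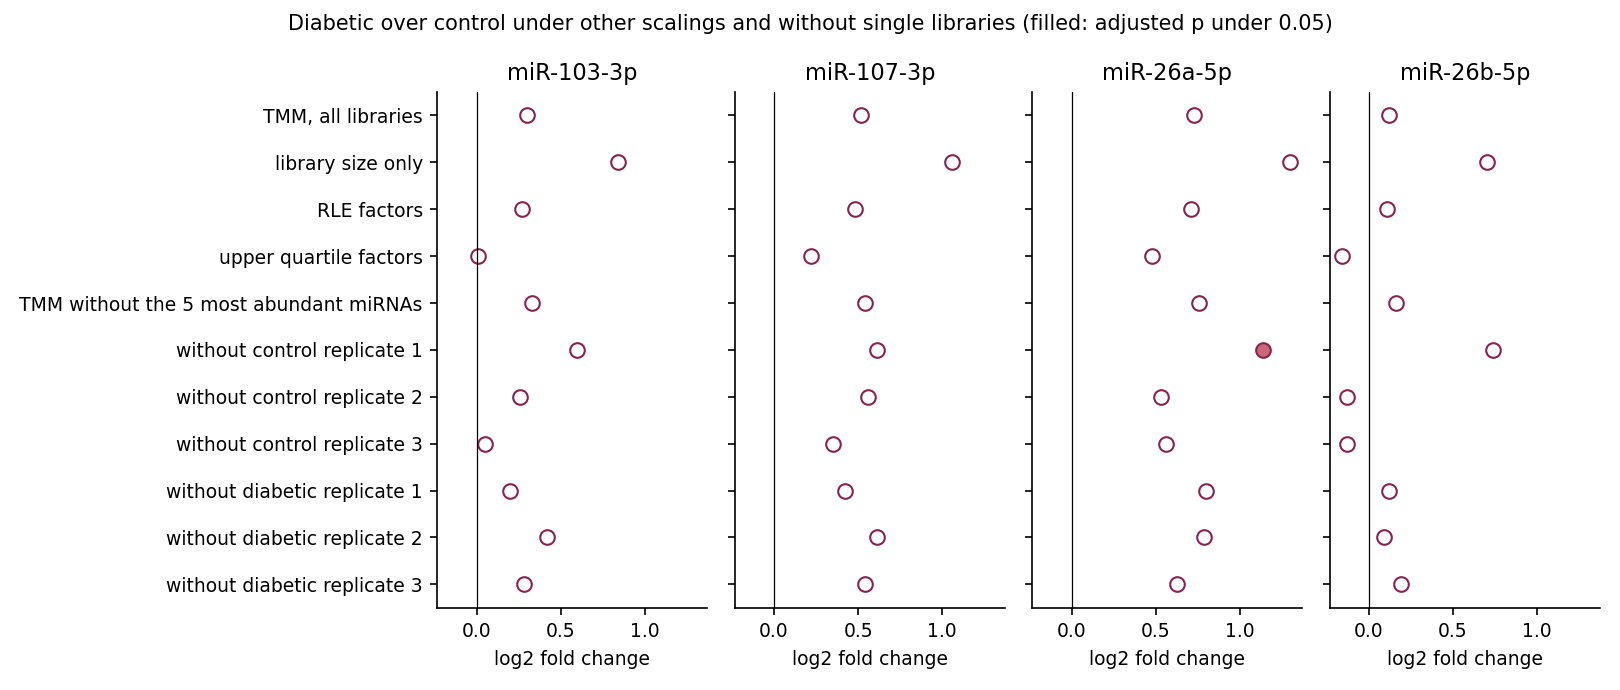
Log2 fold change of diabetic over control for 4 miRNAs under 5 scalings and with each library left out in turn; filled points have an adjusted p under 0.05 in edgeR's quasi-likelihood test. The 1 filled point is miR-26a-5p without C1 (1.14), and miR-26b-5p falls below 0 in 3 of the fits shown.

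The levels were positively correlated over the libraries. Over the 6 libraries the Pearson correlation of log2 normalized CPM was 0.869 between miR-103-3p and miR-107-3p and 0.805 between miR-26a-5p and miR-26b-5p. Values between the families were 0.537 to 0.79. The miRNAs with the most similar pattern were miR-93-3p (0.992) and miR-674-5p (0.978) for miR-103-3p, and miR-503-5p (0.992) and miR-19b-3p (0.974) for miR-107-3p. For miR-26a-5p they were miR-15b-3p (0.982) and miR-872-5p (0.951), and for miR-26b-5p miR-505-3p (0.965) and miR-363-3p (0.953). These are descriptions of 6 points that share their libraries and scaling factors, picked as the highest of 358 candidates each.

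Markers of blood cells and liver were read beside these levels, and no marker of the 4 lists was at 0 in all libraries. The platelet list held miR-126a-3p, miR-126a-5p, miR-191a-5p, miR-223-3p and miR-199a-3p. The lists were set by name, and whether their members come only from the named cells was not tested. The 5 platelet markers held 1.5% to 2.03% of counts in control and 2.72% to 3.16% in diabetic libraries, and the 5 leukocyte markers 0.255% to 0.713% and 0.756% to 1.03%, both without overlap. Of all miRNAs with a count 28.3% had shares that did not overlap. Summed as normalized CPM, the platelet markers stood at 20585 to 25345 in control and 21390 to 26836 in diabetic libraries, and the leukocyte markers at 3632 to 8887 and 6738 to 8095, both with overlap. The median log2 fold change was 1.06 for the platelet and 0.35 for the leukocyte markers with TMM, and 1.64 and 0.93 with library size only. In both lists 4 of the 5 markers lay above 0 and 1 below with TMM. As shares of counts, the 4 erythrocyte markers held 7.01% to 18.3% and 5.11% to 8.84%. The 4 hepatocyte markers held 3.15% to 21% and 5.78% to 8.59%, and both lists overlapped. Summed as normalized CPM, the erythrocyte markers were lower in diabetic libraries without overlap (87426 to 187206 in control, 40216 to 72946 in diabetic). On this scale 21.7% of all miRNAs with a count did not overlap. The hepatocyte markers overlapped (39264 to 299700 and 45366 to 75603). Median log2 fold changes were -0.62 (erythrocyte) and -1.26 (hepatocyte) with TMM, and -0.11 and -0.64 with library size only. Library C1, where miR-26a-5p, miR-26b-5p and miR-103-3p were highest among controls, also had the highest leukocyte (0.713%) and platelet (2.03%) shares of the controls. It had the lowest erythrocyte share of the controls (7.01%), the lowest hepatocyte share of all libraries (3.15%) and the most counts (8930730). The part of these cell types in the levels of the 6 miRNAs was not tested.

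Other miRNAs known to act on insulin signalling or on glucose and lipid metabolism lay on both sides of 0. Of 36 listed, 31 were tested, 14 with a log2 fold change above 0 and 17 below. edgeR's quasi-likelihood test called 0 of the 31, as did limma-voom. DESeq2 called 4 of the 31, where it called 11.6% of all tested miRNAs, and edgeR's exact test called 2, where it called 7.46%. The quasi-likelihood test called 6 of the 31 without C1, where it called 13% of all tested miRNAs, and 1 without DM3, where it called 5.8%. Their median was -0.12, beside 0.02 over all tested miRNAs, or 0.44 and 0.61 with library size only, where 6 were called, all higher, and 13.5% of all tested miRNAs were called. Groups did not overlap for 7 higher and 5 lower ones, where 13.3% and 14.6% of all tested miRNAs did so. At an unadjusted p under 0.05 there were 10 of the 31, 6 higher and 4 lower, where 22.7% of all tested miRNAs passed.

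On the higher side the smallest p-values belonged to miR-145-5p, which is abundant in smooth muscle, both arms of miR-378a, from an intron of the mitochondrial coactivator gene Ppargc1b, and miR-143-3p, which impairs insulin signalling in obese mouse liver. miR-378a-3p stood at 5359, 10617 and 12448 normalized CPM in C1, C2 and C3 and at 22672, 18117 and 23033 in DM1, DM2 and DM3, with no overlap. Its log2 fold change was 1.17 (SE 0.39) and that of miR-378a-5p 1.54 (SE 0.42) (edgeR quasi-likelihood adjusted p = 0.121 and 0.0853). miR-145-5p stood at 1.68 (SE 0.45) and miR-143-3p at 1.07 (SE 0.36) (edgeR quasi-likelihood adjusted p = 0.0853 and 0.121). When single libraries were left out, miR-145-5p passed the threshold only without C1 (2.03) or DM3 (1.97), and miR-143-3p only without C1 (1.22). Over all these fits the values were 1.21 to 2.03 and 0.91 to 1.30, with adjusted p up to 0.275 and 0.327 by the same edgeR test. With library size only miR-145-5p (2.29), miR-378a-5p (2.04), miR-378a-3p (1.73) and miR-143-3p (1.67) all passed. In that fit 13.5% of all tested miRNAs were called. DESeq2 called miR-145-5p, miR-378a-5p and miR-143-3p but not miR-378a-3p, where it called 11.6% of all tested miRNAs.

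On the lower side they belonged to miR-182 and miR-183-5p, from 1 cluster known in sensory organs, to miR-29c-3p, which represses collagens, and to miR-320-3p. miR-29c-3p stood at 19.0, 24.4 and 16.8 normalized CPM in C1, C2 and C3 and at 8.80, 12.2 and 11.0 in DM1, DM2 and DM3. On this normalized scale its groups did not overlap, nor did those of miR-320-3p, whereas as shares of counts the groups of both overlapped. The log2 fold changes were -0.91 (SE 0.36) for miR-29c-3p and -0.79 (SE 0.34) for miR-320-3p (edgeR quasi-likelihood adjusted p = 0.176 and 0.203), and with library size only they were -0.38 and -0.25. miR-182 stood at -1.41 (SE 0.46) and miR-183-5p at -1.40 (SE 0.60) (edgeR quasi-likelihood adjusted p = 0.114 and 0.203). The groups of both overlapped on the normalized scale and as shares of counts. Both had a C1 far below the other controls, and without it they fell by 1.82 and 1.86 on the log2 scale and passed the threshold. Without any other single library neither passed, and miR-183-5p stood at -0.78 without C3. With library size only the values were -0.85 and -0.82, and neither passed. DESeq2 called miR-182 (adjusted p = 0.0406) and not miR-183-5p, where it called 11.6% of all tested miRNAs.

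**Figure D5:**
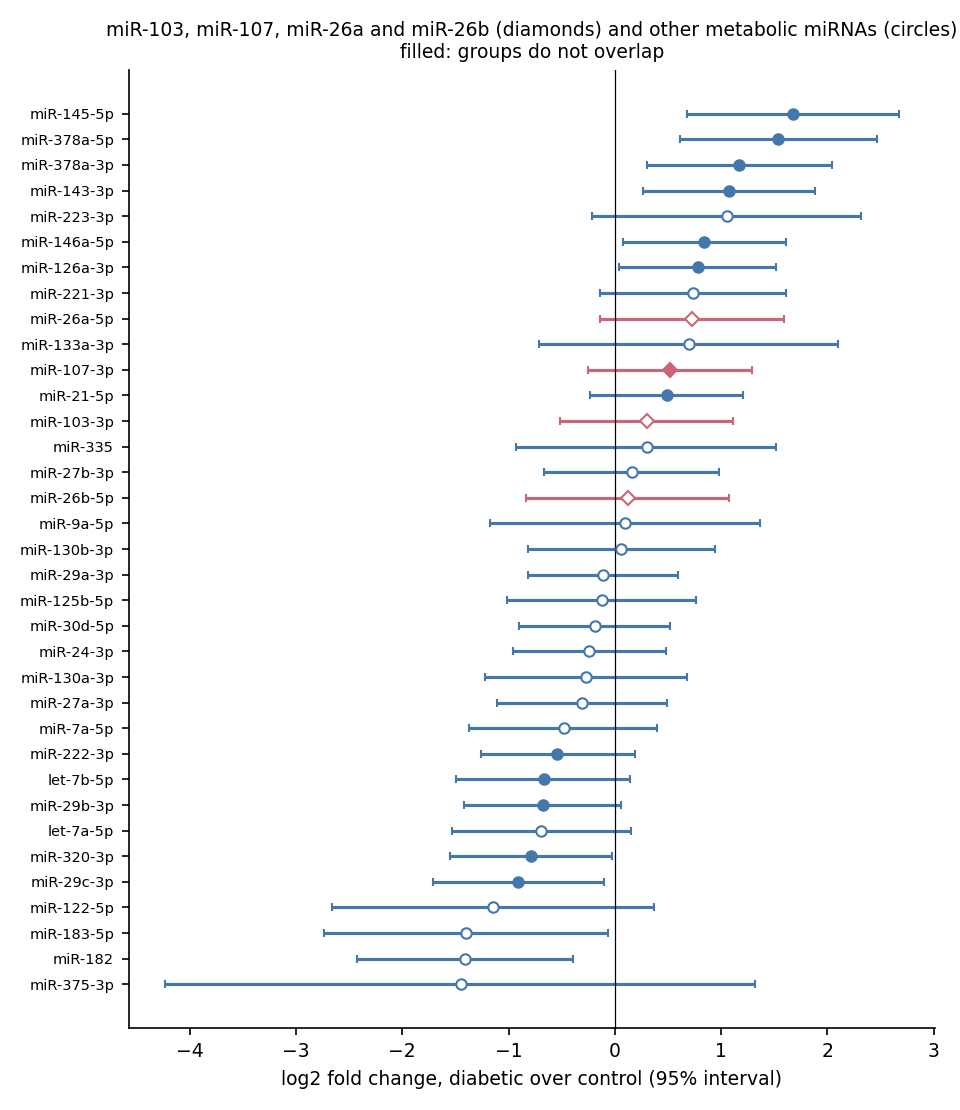
Log2 fold change of diabetic over control with its 95% interval for 4 of the 6 miRNAs (diamonds) and the 31 tested other metabolic miRNAs (circles), ordered by value; filled symbols mark miRNAs whose groups did not overlap in normalized CPM. The diamonds lie between 0.12 and 0.73, within the range of the circles.

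In the authors' deposited table the log2 ratios of mean CPM were 1.30 for miR-26a-5p, 1.06 for miR-107-3p, 0.84 for miR-103-3p, 0.70 for miR-26b-5p, 2.02 for miR-34a-5p and -0.83 for miR-33-5p. The false discovery rates of the authors' deposited table were 0.0618 for miR-26a-5p, 0.144 for miR-107-3p and 0.216 to 0.691 for the other 4. None of the 6 was thus under 0.05 there, where 63 miRNAs were, 57 higher and 6 lower, with 764 miRNAs listed in the counts.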

How the data were processed

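The authors deposited whole-number counts per mature miRNA for 6 libraries, CPM values made from them, and their own comparison with a log2 ratio of mean CPM, p-values and false discovery rates. The counts of both deposited tables were identical in all 4584 cells, and CPM were recomputed within 0.005. Per the labels' protocols, RNA was extracted with TRIZOL and sequenced on an Illumina HiSeq instrument. Per the submitters' processing notes the reads were placed on rn6. Aligner, counting rules and miRNA annotation are not given in the sources used here. The authors' test is edgeR by its table's name and DEGseq by the series text.

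The deposited counts were tested with edgeR 4.0.16 (R 4.3.3; quasi-likelihood, two-sided, TMM) after filterByExpr (minimum count 10, minimum total 15), which kept 362 of 764 miRNAs. Standard errors come from the log2 fold change over the root of F. Alternatives used limma 3.58.1 and DESeq2 1.42.0. Shares and ratios were compared by two-sided exact permutation tests (scipy 1.17.1). Detection limits are 3 counts, and intervals cover counting error only, since PCR copies cannot be told from molecules. The 6 miRNAs and the lists were chosen with earlier results of these data known. Named miRNAs are the 6, the detected other arms, seed relatives, up to 4 metabolic miRNAs per direction with the smallest p, and the 2 most correlated miRNAs of each tested one. All 6 mature sequences were found in RefSeq. Groups and replicate numbers came from the titles. The numbers are shared between groups with no stated link, so the fit has no block.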

Additional observations from a re-analysis of the deposited data

How the results depend on the processing

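The number of miRNAs called was 6 with TMM (2 higher, 4 lower), 49 with library size only (45 higher, 4 lower), 2 with upper quartile factors (0 higher, 2 lower), 42 with DESeq2, 27 with edgeR's exact test and 0 to 49 when single libraries were left out. Where edgeR's quasi-likelihood test called 0, 57 to 59 miRNAs had an unadjusted p under 0.05. Of the 6 miRNAs described, 0 to 1 were called when single libraries were left out. The log2 fold change of miR-26a-5p was then 0.53 to 1.14 and was called without control replicate 1, and that of miR-26b-5p -0.13 to 0.74. With upper quartile factors miR-26b-5p stood at -0.16, and with library size only miR-34c-3p stood at 0.12. The cause was not tested. Under all 16 alternatives miR-103-3p, miR-107-3p and miR-26a-5p stayed above 0 (0.01 to 0.84, 0.22 to 1.06 and 0.48 to 1.30). With partners summed into 1 entry the log2 fold change was 0.33 for miR-103-3p with miR-107-3p and 0.72 for miR-26a-5p with miR-26b-5p. A fit with the replicate number as a block called 57 of all 362 tested miRNAs, 0 of the 6 and 7 of the 31 other metabolic miRNAs. The deviations of same-numbered libraries correlated at 0.281, 0.001 and 0.246, control replicate 2 was closest to diabetic replicate 1, and the numbers were not taken as pairs. Depth limits miR-33-5p and miR-34a-5p, with 32 and 44 counts in all. The ratios of their pooled counts with TMM-scaled library sizes, 0.375 and 2.81, were added after seeing the data.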
